A study of Mus musculus with 6 samples.

Results

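The 10 genes described here were the 4 Notch receptors Notch1, Notch2, Notch3, and Notch4, the 4 ligands Dll1, Dll4, Jag1, and Jag2, and the 2 target genes Hes1 and Hey1, chosen by symbol from the 27546 genes of the expression table. All 10 were found in the table, and all 10 passed the filter of a mean FPKM (fragments divided by exon length and library depth) of at least 0.5 over the 6 mice. RNA-Seq had been carried out on dissected distal colon of 3 Gm31629-/- mice, in which a region of chromosome 1 holding the long noncoding RNA gene Gm31629 is deleted in all tissues, and of 3 WT littermates. All 6 mice were C57BL/6, were 8 weeks old, and drank water with 3% dextran sulfate sodium (DSS), which injures the epithelium of the colon, for 7 days before sacrifice on day 8. The comparison is therefore between genotypes after injury, with no untreated mice. One library per mouse was analysed, although the study's methods describe the RNA of 3 mice per genotype as pooled.

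Notch receptors are single-pass membrane proteins that are activated by ligands on a neighboring cell. Ligand binding exposes the receptor to cleavage by an ADAM protease and then by γ-secretase, and the released intracellular domain joins RBPJ and a Mastermind-like coactivator on DNA to switch on Hes and Hey repressor genes. In the intestinal crypt, Notch1 and Notch2 with Dll1 and Dll4 keep progenitors from entering the secretory lineage, in large part because Hes1 represses Atoh1. In the vessel wall, Notch4, Dll4, and Hey1 are used by endothelium, Notch3 by pericytes and smooth muscle, and Jag1 by both.

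The 6 libraries were of like depth, at an estimated 18006000 to 18795100 mapped fragments. Summed FPKM of 15 epithelial markers was 8236 to 9757 in Gm31629-/- mice and 13270 to 14498 in WT mice, so the tissue label was met by epithelial RNA in every library. Markers of other cells moved the other way. Summed FPKM of 12 endothelial markers was 70.1 to 174 against 4.76 to 11.5, that of 8 pericyte markers 119 to 233 against 3.82 to 8.28, and that of 12 smooth muscle markers 1333 to 2067 against 25.7 to 45.9. In bulk tissue, more cells of a type and more RNA per cell cannot be told apart. Among single libraries, Gm31629-/- mouse 3 held a summed FPKM of 1159 over 6 pancreatic acinar markers, against 26 to 53.8 in the other libraries. Gm31629-/- mouse 1 was the only library with transcripts of the Y-linked genes Ddx3y, Eif2s3y, Kdm5d, and Uty, and the only one with Xist near 0 (0.00606 FPKM, against 8.35 to 13.8 FPKM), whereas the study's methods describe male mice.

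Of the 10 Notch genes, 4 were called higher in Gm31629-/- mice, where a call needed both a log2 fold change above 1 on the log2(FPKM + 1) scale and an adjusted p from limma under 0.05. These were Notch2, Notch3, Notch4, and Hey1, a share to be read against the 18.4% of all 14657 tested genes that were called higher. None was called lower, against 4.64% of tested genes, and none was called lower by voom on recovered fragments. In the main limma fit, none was lower at an unadjusted p under 0.05. Jag2 made a 5th gene with an adjusted p under 0.05, against 43.5% of tested genes in either direction. In 6 of the 10 genes all 3 Gm31629-/- mice lay above all 3 WT mice, against 36.3% of tested genes, and in none did they all lie below, against 21.5%. Notch3 and Hey1, counted both among the 4 and among the 6, passed the filter on low values only through the Gm31629-/- group. The median log2 fold change of the 10 genes was 0.68, against 0.15 over all tested genes. Without Gm31629-/- mouse 1, 5 of the 10 were called higher. Without Gm31629-/- mouse 2, Hey1 fell under the filter, and 2 of the 9 genes then tested were called higher. When libraries were instead scaled to the endothelial markers, the median of all tested genes moved to -2.84, none of the 9 members then tested was higher, and 8 were called lower.

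**Figure D1:**
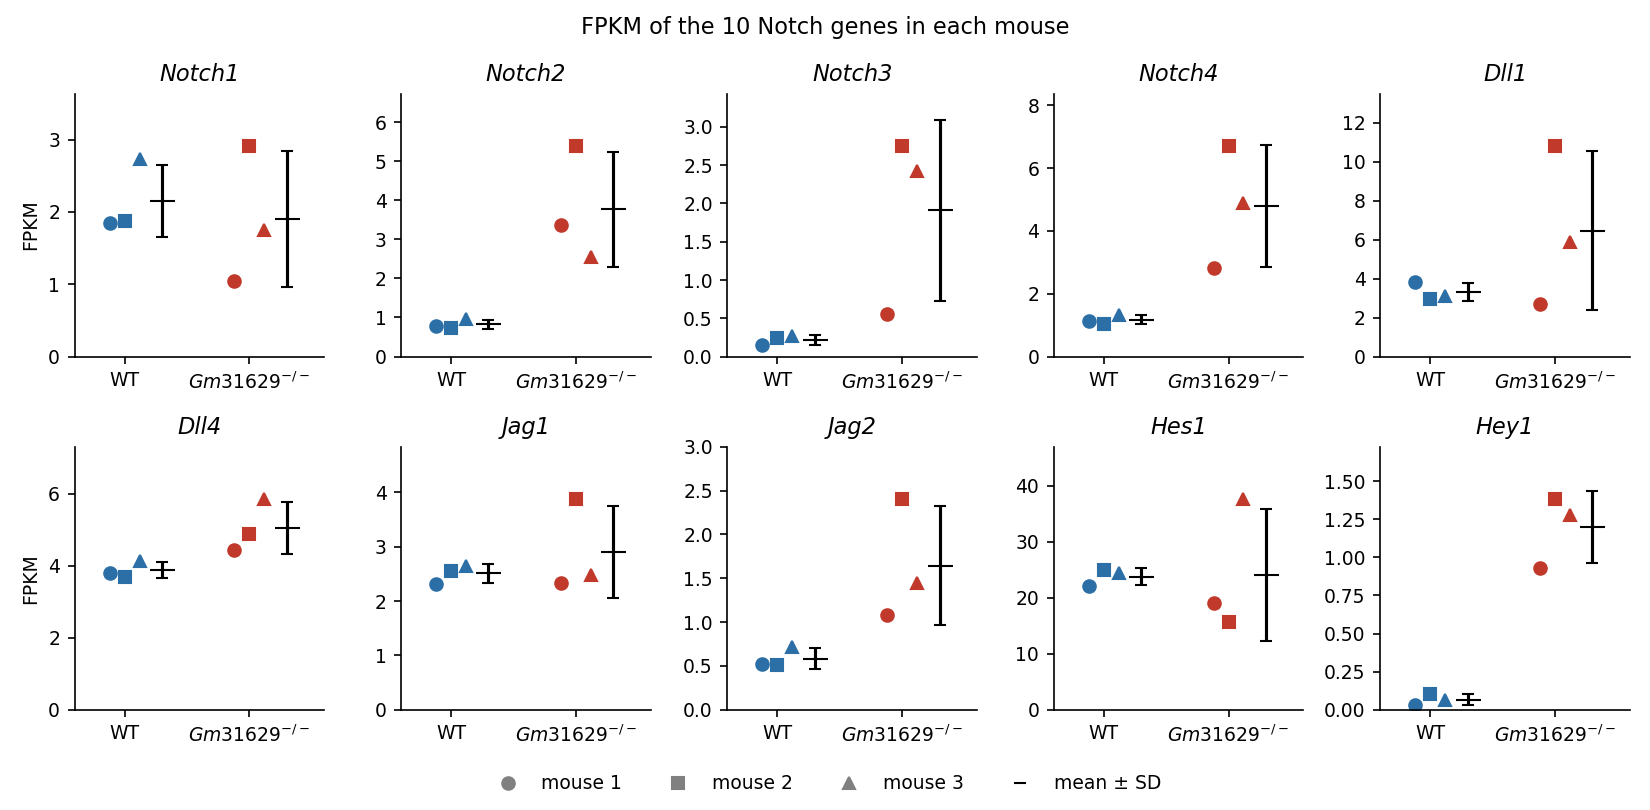
FPKM (linear axis, from 0) of the 10 Notch genes in each of 3 Gm31629-/- and 3 WT mice, with points for mice and bars for the mean and SD. The Gm31629-/- points lie above all WT points for Notch2, Notch3, Notch4, Dll4, Jag2, and Hey1, and the groups overlap for Notch1, Dll1, Jag1, and Hes1.

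Among the receptors, Notch2, Notch3, and Notch4 were called higher in Gm31629-/- mice, each in 3 of 3 mice, while Notch1 did not pass the test. The 3 rises reversed in sign when libraries were scaled to the endothelial markers, to -1.28 for Notch2, -0.47 for Notch3, and -1.54 for Notch4, values that lay above the median of -2.84 for all tested genes under that scaling. Fold changes of genes with low FPKM are understated on the log2(FPKM + 1) scale, so ratios of group means are given beside them.

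Notch1 (ENSMUSG00000026923, chr2:26457903-26516663 on the minus strand of GRCm38), the receptor best known for its role in crypt progenitors and T cells, measured 1.04, 2.91, and 1.75 FPKM in Gm31629-/- mice 1 to 3 and 1.85, 1.87, and 2.73 FPKM in WT mice 1 to 3. The lowest and the highest of the 6 values were both from Gm31629-/- mice, so the groups overlapped. The log2 fold change was -0.16 (SE 0.26, 95% CI -0.78 to 0.46, limma adjusted p = 0.651), an interval that leaves room for a change of either sign.

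Notch2 (ENSMUSG00000027878, chr3:98013527-98150361, plus strand), which acts with Notch1 in the crypt and is also used by B cells and macrophages, measured 3.37, 5.39, and 2.54 FPKM in Gm31629-/- mice and 0.772, 0.742, and 0.962 FPKM in WT mice. The lowest Gm31629-/- value was above the highest WT value. Group means were 3.77 ± 1.47 and 0.825 ± 0.12 FPKM (SD, n = 3 each), a ratio of 4.56. Its log2 fold change was 1.34 (SE 0.24, 95% CI 0.79 to 1.90, limma adjusted p = 0.00455), and the call held in 6 of 6 fits that left out 1 mouse.

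Notch3 (ENSMUSG00000038146, chr17:32120820-32166852, minus strand), the receptor of vascular smooth muscle and pericytes, measured 0.561, 2.75, and 2.42 FPKM in Gm31629-/- mice and 0.148, 0.242, and 0.271 FPKM in WT mice. These values stood for 83, 410, and 360 recovered fragments against 22, 35, and 41. Gm31629-/- mouse 1 was nearer to the WT mice than to the other Gm31629-/- mice, yet the groups did not overlap. The mean of 1.91 ± 1.18 FPKM was 8.68 times the WT mean of 0.22 ± 0.0644 FPKM (SD, n = 3 each), and the gene passed the filter on low values only through the Gm31629-/- group. Its log2 fold change was 1.16 (SE 0.33, 95% CI 0.38 to 1.93, limma adjusted p = 0.027). The call held in 1 of 6 fits that left out 1 mouse, the one without Gm31629-/- mouse 1, and adjusted p from limma ranged from 0.000708 to 0.0815 over these fits. With no filter on low values the limma adjusted p was 0.0571.

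Notch4 (ENSMUSG00000015468, chr17:34564268-34588503, plus strand), a receptor found mainly in endothelium, measured 2.81, 6.70, and 4.90 FPKM in Gm31629-/- mice and 1.14, 1.04, and 1.33 FPKM in WT mice. Every Gm31629-/- value was above every WT value, and the ratio of means, 4.80 ± 1.94 to 1.17 ± 0.145 FPKM (SD, n = 3 each), was 4.11. On the log2 scale, the difference of 1.36 (SE 0.26, 95% CI 0.74 to 1.98, limma adjusted p = 0.00651) was a call that also held in 6 of 6 fits without 1 mouse.

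Beside these receptor values, 12 of 12 endothelial markers, 7 of 7 tested pericyte markers, and 11 of 12 smooth muscle markers were called higher. The pericyte marker Higd1b was at 0 in all 3 WT libraries. Markers of macrophages (7 of 7) and fibroblasts (8 of 8) were called higher as well, and 5 of 15 epithelial markers were called lower. The part of these cell types in the receptor values was not tested.

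**Figure D2:**
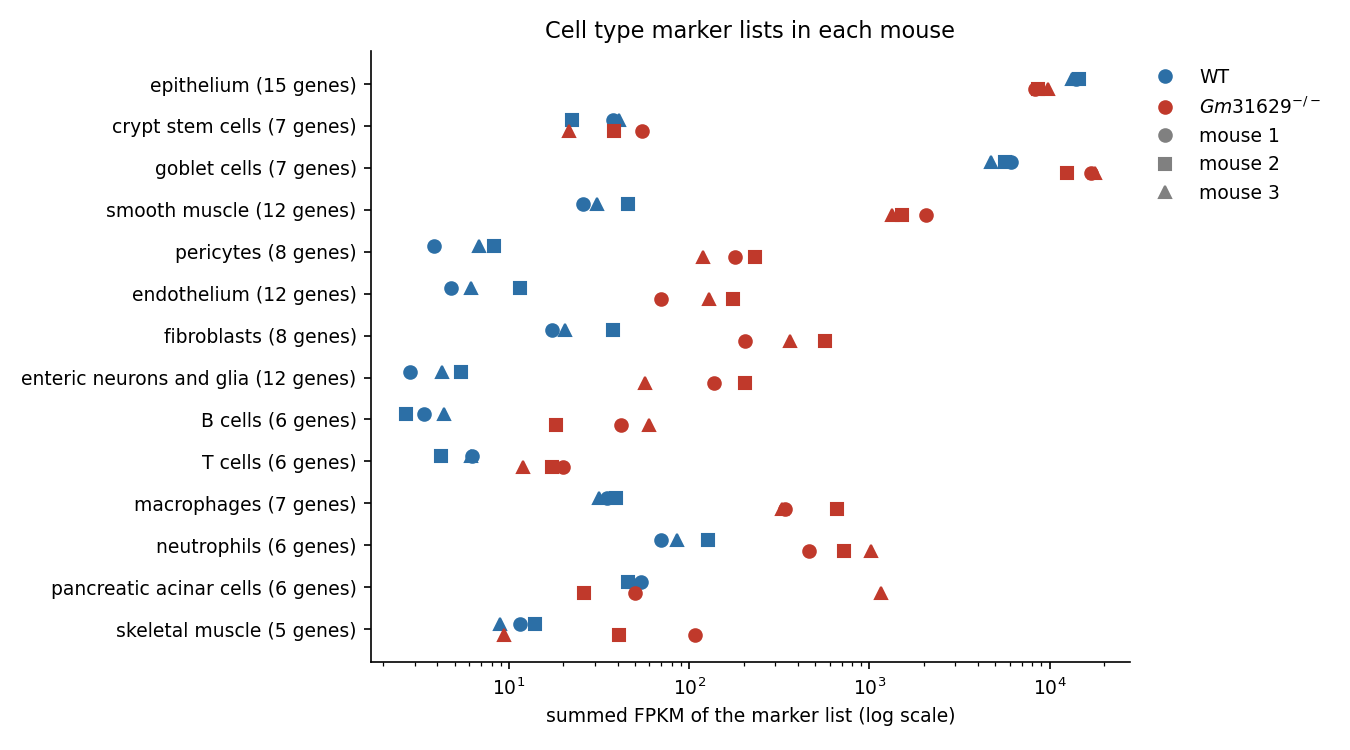
Summed FPKM (log axis) of marker genes of the cell types in each mouse, with 3 points for Gm31629-/- mice and 3 for WT mice in each list. Endothelial markers sum to 70.1 to 174 FPKM in Gm31629-/- mice and 4.76 to 11.5 FPKM in WT mice, whereas epithelial markers sum to 8236 to 9757 and 13270 to 14498 FPKM.

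The makeup of the receptor pool was described by shares, a measure in which the scaling of a library cancels. The shares restate the FPKM values given above for the single receptors and are not a separate result. Summed FPKM of the 4 receptors was 7.78, 17.7, and 11.6 in Gm31629-/- mice and 3.91, 3.89, and 5.29 in WT mice. The share of Notch1 in that sum was 47.4%, 48%, and 51.6% in the WT group and 13.4%, 16.4%, and 15.1% in the Gm31629-/- group, a difference in means of -34 percentage points. Notch1 was the leading receptor in every WT mouse. In Gm31629-/- mice the leading receptor was Notch2 in mouse 1, at 43.3%, and Notch4 in mice 2 and 3, at 37.7% and 42.2%. The share of Notch4 was 38.7% ± 3.14 against 27% ± 2.03, that of Notch2 31.8% ± 10.8 against 19% ± 0.764, and that of Notch3 14.5% ± 6.88 against 5.04% ± 1.22 (SD, n = 3 each). The groups did not overlap for any of the 4 receptor shares, and how often this happens in other gene families was not computed. The exact two-sided permutation p was 0.1 for each, which is the smallest that 3 mice against 3 can give, and 0.133 after Benjamini-Hochberg adjustment over 8 shares. Shares within a family are not independent, since they add up to the whole.

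**Figure D3:**
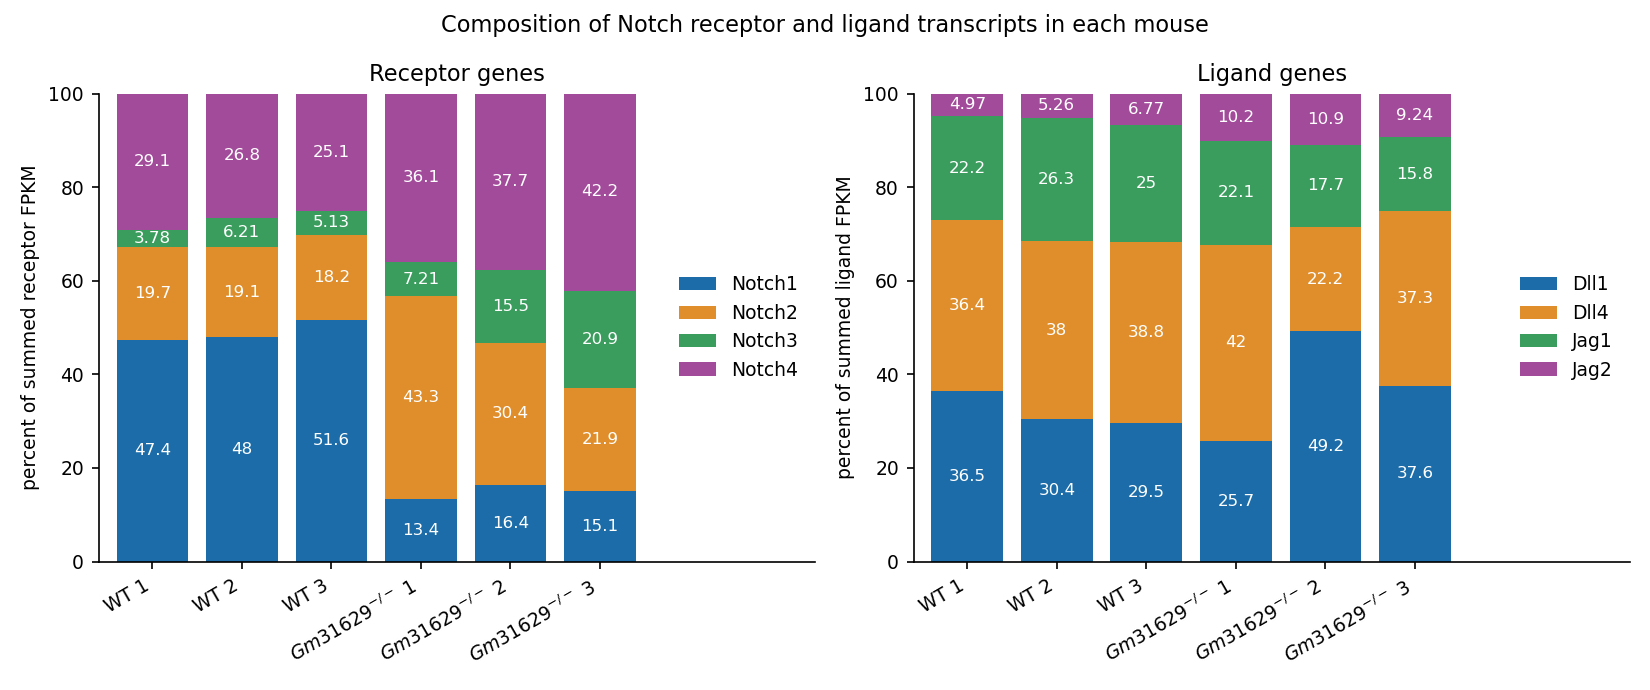
Stacked bars of the share (percent of summed FPKM) of each receptor and of each ligand in each of 3 Gm31629-/- and 3 WT mice. Notch1 takes 47.4% to 51.6% of receptor FPKM in WT mice and 13.4% to 16.4% in Gm31629-/- mice, and among ligands the Jag2 share is 4.97% to 6.77% against 9.24% to 10.9%.

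Among the ligands, no gene met both criteria of a call on the log2(FPKM + 1) scale. Jag2 passed the test with a log2 fold change under 1 on that scale, Dll4 did not pass it although its groups did not overlap, and Dll1 and Jag1 overlapped between the genotypes.

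Dll1 (ENSMUSG00000014773, chr17:15367354-15376872, minus strand), a ligand of secretory progenitors in the crypt and also of stromal cells, measured 2.72, 10.8, and 5.88 FPKM in Gm31629-/- mice and 3.82, 2.95, and 3.13 FPKM in WT mice. Gm31629-/- mice 2 and 3 were above all WT mice and mouse 1 was below them. The log2 fold change was 0.65 (SE 0.39, 95% CI -0.27 to 1.56, limma adjusted p = 0.212). Over the 6 fits that left out 1 mouse it ranged from 0.24 to 1.07 (limma adjusted p from 0.0186 to 0.531). Only 1 of these fits gave a call, the one without Gm31629-/- mouse 1, the library with Y-linked transcripts (1.07, limma adjusted p = 0.0186). Without Gm31629-/- mouse 2 it was 0.24 (limma adjusted p = 0.531). Antisense gene A930024N18Rik overlaps 20.5% of the Dll1 exon bases, and how reads there were assigned is not given in the sources used here.

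Dll4 (ENSMUSG00000027314, chr2:119325784-119335962, plus strand), the ligand of crypt base secretory cells and of arterial and sprouting endothelium, measured 4.44, 4.87, and 5.84 FPKM in Gm31629-/- mice and 3.80, 3.69, and 4.12 FPKM in WT mice. All Gm31629-/- mice were above all WT mice, by a ratio of means of 1.3. Its log2 fold change of 0.31 did not pass the test (SE 0.16, 95% CI -0.06 to 0.67, limma adjusted p = 0.149). Dll4 had the smallest relative spread of the 4 ligands in Gm31629-/- mice, at 5.05 ± 0.714 FPKM (SD, n = 3).

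Jag1 (ENSMUSG00000027276, chr2:137081456-137116644, minus strand), a ligand of epithelium, endothelium, and smooth muscle, measured 2.34, 3.87, and 2.48 FPKM in Gm31629-/- mice and 2.32, 2.55, and 2.65 FPKM in WT mice. Only Gm31629-/- mouse 2 stood above the WT range. On the log2 scale, the difference was 0.13 (SE 0.19, 95% CI -0.32 to 0.58, limma adjusted p = 0.606).

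Jag2 (ENSMUSG00000002799, chr12:112907819-112929776, minus strand), the other Jagged ligand, measured 1.08, 2.40, and 1.45 FPKM in Gm31629-/- mice and 0.52, 0.51, and 0.718 FPKM in WT mice. The groups did not overlap, and the means of 1.64 ± 0.681 and 0.583 ± 0.117 FPKM (SD, n = 3 each) stood at a ratio of 2.81. The log2 fold change was 0.71 (SE 0.21, 95% CI 0.21 to 1.21, limma adjusted p = 0.0316), and the adjusted p stayed under 0.05 in 1 of 6 fits that left out 1 mouse (range, 0.015 to 0.095). Jag2 was called higher with a pseudocount of 0.1 (1.29, limma adjusted p = 0.0225), by voom on recovered fragments (1.42, limma adjusted p = 0.0197), and with epithelial scaling (1.06, limma adjusted p = 0.0101). It did not pass the test with no filter (limma adjusted p = 0.0661) or with replicate number as a block (limma adjusted p = 0.0567). With endothelial scaling it turned to -1.36 (limma adjusted p = 0.000771), against a median of -2.84 for all tested genes.

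Summed FPKM of the 4 ligands was 10.6, 21.9, and 15.6 in Gm31629-/- mice and 10.5, 9.70, and 10.6 in WT mice, with an exact two-sided permutation p of 0.2. The Jag2 share of this sum was 10.1% ± 0.848 in Gm31629-/- mice and 5.67% ± 0.965 in WT mice, and the Jag1 share was 18.5% ± 3.24 and 24.5% ± 2.12 (SD, n = 3 each). For both, the groups did not overlap and the exact permutation p was 0.1, or 0.133 adjusted over the 8 shares. The Dll1 share was 37.5% against 32.1% (exact permutation p = 0.6) and the Dll4 share 33.8% against 37.7% (exact permutation p = 0.8), both within the spread between mice.

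Of the 2 target genes, Hey1 was called higher in Gm31629-/- mice and Hes1 did not pass the test. Hes1 (ENSMUSG00000022528, chr16:30064384-30067796, plus strand), the repressor that Notch signaling induces in crypt progenitors, measured 19.1, 15.7, and 37.6 FPKM in Gm31629-/- mice and 22.1, 24.9, and 24.4 FPKM in WT mice. The WT values lay inside the range of the Gm31629-/- values, and the means were 24.1 ± 11.8 and 23.8 ± 1.47 FPKM (SD, n = 3 each). Its log2 fold change was -0.08 (SE 0.30, 95% CI -0.78 to 0.63, limma adjusted p = 0.855). The highest value came from Gm31629-/- mouse 3, the library with pancreatic acinar transcripts, whose part in it was not tested. Without that mouse the log2 fold change was -0.43, with no call.

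Hey1 (ENSMUSG00000040289, chr3:8663359-8667256, minus strand), a repressor induced by Notch in endothelium and vascular smooth muscle, measured 0.932, 1.38, and 1.28 FPKM in Gm31629-/- mice and 0.0331, 0.102, and 0.0652 FPKM in WT mice. These were 56, 83, and 77 recovered fragments against 2, 6, and 4, so that Hey1 was close to undetected in WT colon at this depth. It passed the filter on low values only through the Gm31629-/- group. The pooled fragments, 216 against 12, gave a depth-scaled ratio of 18 with an exact 95% interval of 10.1 to 35.4, which covers counting error only. On the log2 scale, the difference was 1.04 (SE 0.15, 95% CI 0.68 to 1.39, limma adjusted p = 0.00221), and Hey1 was called in 5 of 5 fits without 1 mouse, since without Gm31629-/- mouse 2 it fell under the filter. With libraries scaled by the median ratio the log2 fold change was 0.96, just short of the fold a call needs.

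**Figure D4:**
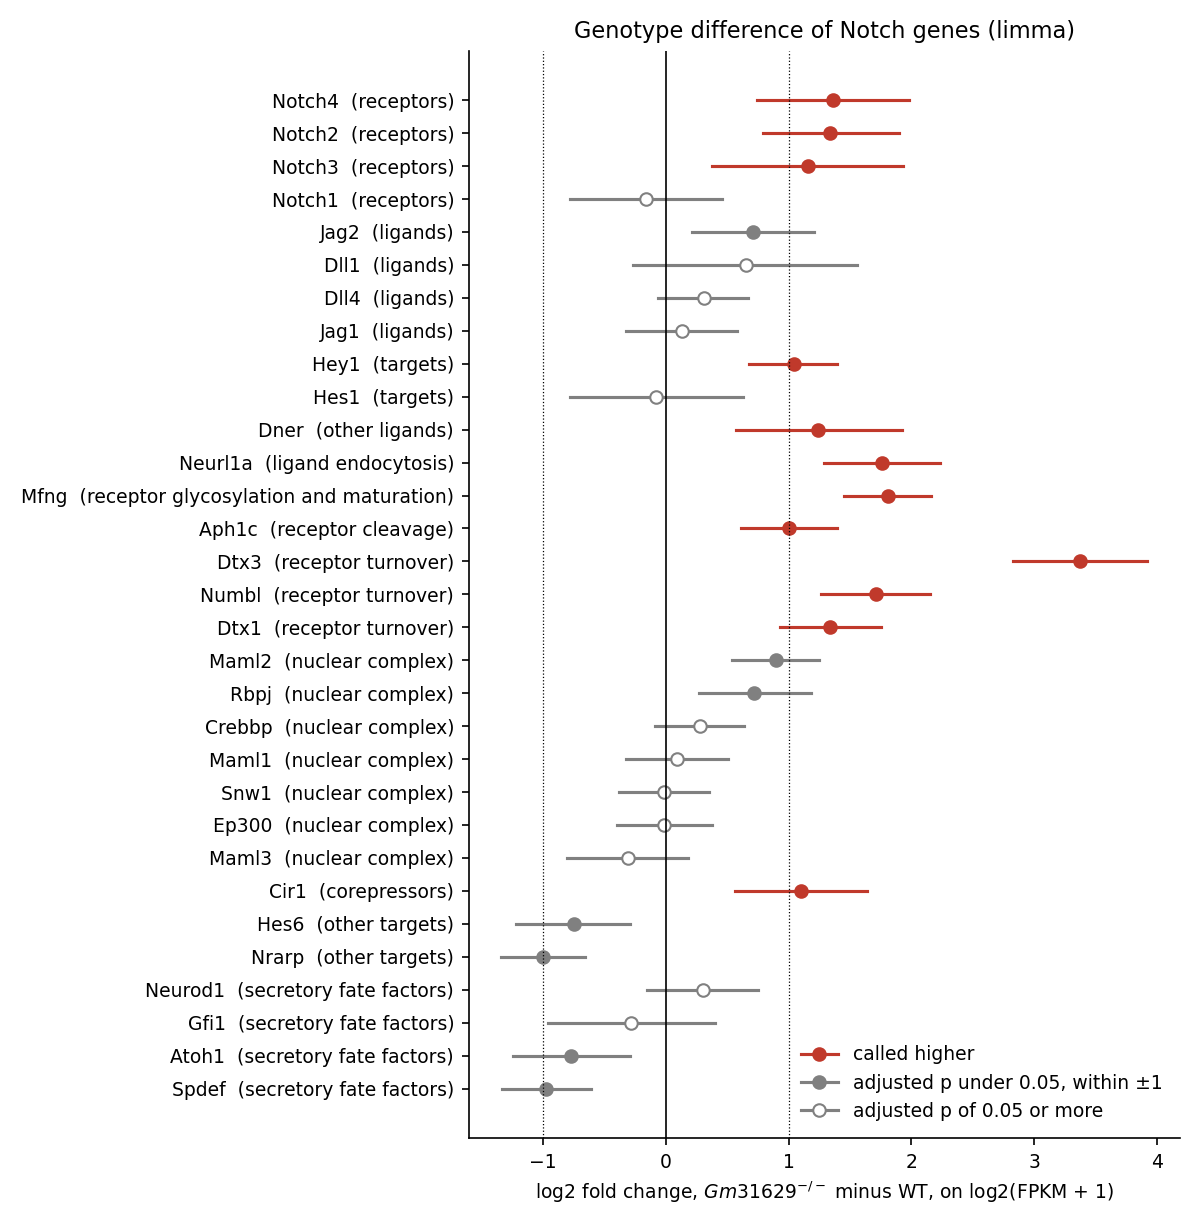
Log2 fold change (Gm31629-/- minus WT, on log2(FPKM + 1)) of the 10 Notch genes and of pathway genes, with bars for the 95% CI of the limma fit to 3 mice per group. The pathway genes are those called and the tested genes of the nuclear complex, other targets, and secretory fate factors. Among the 10 Notch genes, Notch2, Notch3, Notch4, and Hey1 lie above 1 at the scaling used for the report. Jag2 lies at 0.71 with an interval above 0, and the intervals of the other 5 of the 10 include 0.

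Levels of the 10 genes can be ordered within a group, since FPKM is per length of exon. In WT mice the order of mean FPKM was Hes1 (23.8), Dll4 (3.87), Dll1 (3.30), Jag1 (2.51), Notch1 (2.15), Notch4 (1.17), Notch2 (0.825), Jag2 (0.583), Notch3 (0.22), and Hey1 (0.0668). Between neighbors in that order, the ranges over 3 mice overlapped for Dll4 and Dll1 and for Jag1 and Notch1, and did not overlap elsewhere. In Gm31629-/- mice the order was Hes1 (24.1), Dll1 (6.46), Dll4 (5.05), Notch4 (4.80), Notch2 (3.77), Jag1 (2.89), Notch3 (1.91), Notch1 (1.90), Jag2 (1.64), and Hey1 (1.20). Hes1 was clear of the rest there, and every later pair of neighbors overlapped. Mean FPKM was highest for Hes1 and lowest for Hey1 in both genotypes, although in Gm31629-/- mice the range of Hey1 overlapped that of Jag2, and in mouse 1 Notch3 was below Hey1.

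The SD of FPKM was larger in Gm31629-/- mice than in WT mice for 10 of the 10 genes, a count whose share over all genes was not computed. Averaged over genes, libraries also differed more within the Gm31629-/- group. Chi-square per gene, which grows with the difference between 2 libraries, was 96.9 to 143 within the Gm31629-/- group and 32.1 to 46.7 within the WT group. It also grows with the number of fragments, so abundant genes weigh most in it, and it does not give the spread of genes at the levels described here. Relative to its mean, the SD of Hey1 was larger in WT mice. Gm31629-/- mouse 2 gave the highest value of its group for 8 of the 10 genes and mouse 1 the lowest for 8, whereas Hes1 was lowest in mouse 2 and highest in mouse 3. Over mice 1 to 3, marker sums were 70.1, 174, and 129 FPKM for endothelium, 203, 567, and 362 for fibroblasts, 179, 233, and 119 for pericytes, 338, 664, and 325 for macrophages, and 2067, 1511, and 1333 for smooth muscle. Mouse 2 was highest in each of these lists but that of smooth muscle, in which mouse 1 was highest. Mouse 2 was also highest for enteric neurons and glia (137, 204, and 57.1). Other lists ordered the mice otherwise, among them B cells (42, 18.3, and 59.5) and T cells (19.9, 17.4, and 12). Neutrophil markers summed to 463, 719.9, and 1023, goblet cell markers to 17025, 12478, and 17890, and epithelial markers to 8236, 8576, and 9757. The part of any cell type in these orders was not tested. In WT mice, mouse 3 gave the highest value for 7 genes.

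The rest of the pathway was followed with a list of 59 genes ordered by step, of which 51 passed the filter. Of these, 8 were called higher and none lower, against 18.4% and 4.64% of all tested genes. By limma adjusted p alone 16 were higher and 8 lower, against 43.5% of all tested genes in either direction, so both counts of the list lay near the background. The called genes Dner, Neurl1a, Mfng, Aph1c, Numbl, and Dtx1 passed the filter on low values only through the Gm31629-/- group. So did Maml2, Neurod1, and a corepressor gene, none of them called, while Nrarp passed only through the WT group. The median log2 fold change of the 51 genes was 0.28, against 0.15 over all tested genes. By voom on recovered fragments 12 were called higher and 1 lower. With libraries scaled to the endothelial markers, none was called higher and 43 were called lower. Genes of the list under the filter were Dll3, Dlk1, Dlk2, Hes5, Hes7, Hey2, Heyl, and Neurog3.

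**Figure D5:**
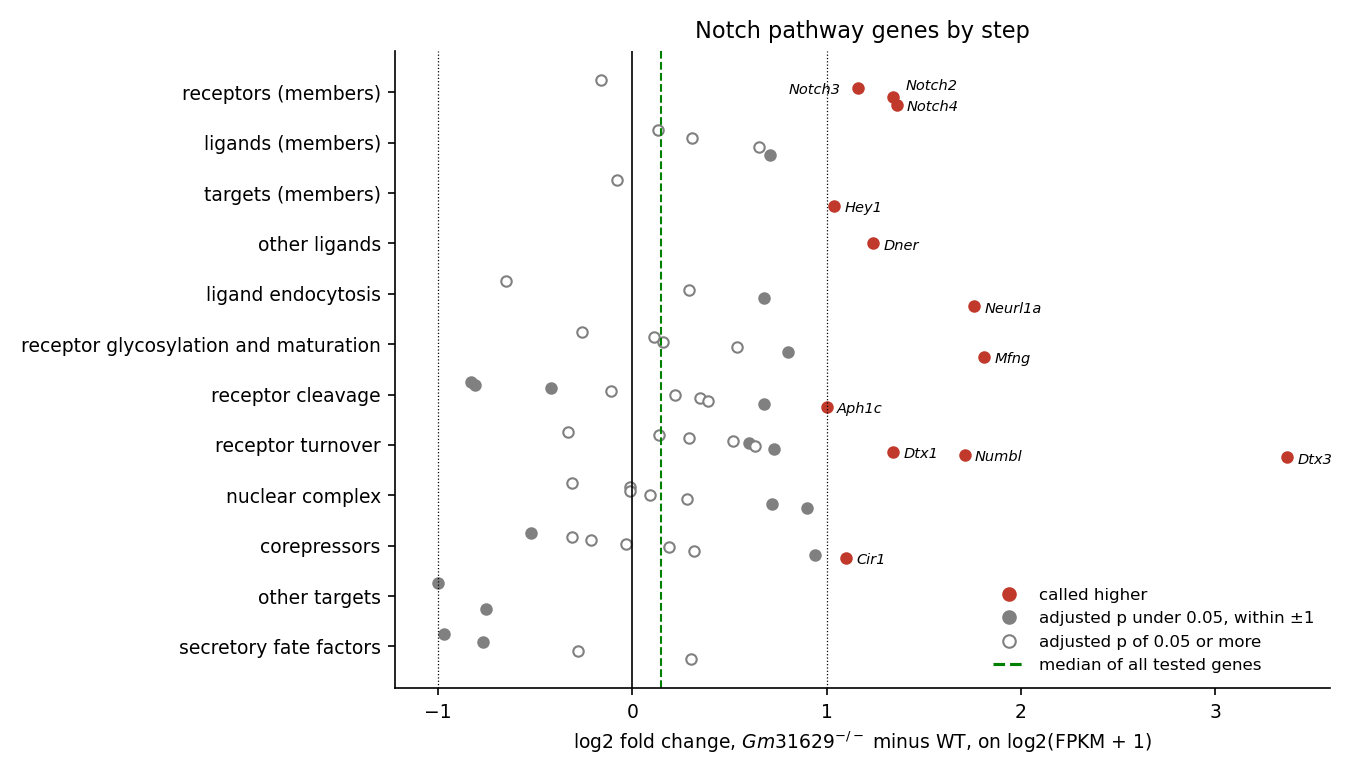
Log2 fold change (Gm31629-/- minus WT, on log2(FPKM + 1)) of the tested Notch pathway genes by step, with 1 point per gene, the median of all tested genes (0.15) as a dashed line, and the fold needed for a call as dotted lines. The 12 called genes, 4 of the 10 described above and 8 of the list, lie to the right of 1 at the scaling used for the report, and genes with an adjusted p under 0.05 to the left of 0 lie in the steps of receptor cleavage, corepressors, other targets, and secretory fate factors.

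Among the tested genes of the list, Dtx3, a member of the Deltex ubiquitin ligases, had the largest change on the log2(FPKM + 1) scale, while the ratio of means was 17.6 for Dtx3 and 19.1 for Dner. Dtx3 measured 18.8, 33.2, and 21.1 FPKM in Gm31629-/- mice and 1.16, 1.66, and 1.34 FPKM in WT mice, for a log2 difference of 3.37 (limma adjusted p = 0.000221). Its relative Dtx1, at 2.71 ± 0.632 against 0.453 ± 0.0431 FPKM, and Numbl, a homolog of the Notch antagonist Numb, at 3.00 ± 0.846 against 0.209 ± 0.0514 FPKM (SD, n = 3 each), were also called higher (log2 fold changes of 1.34 and 1.71).

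Mfng, a Fringe glycosyltransferase that adjusts which ligand a receptor answers, rose from 0.299 ± 0.0286 to 3.56 ± 0.429 FPKM (log2 fold change 1.81, limma adjusted p = 0.000357). The other Fringe genes did not pass the test, with log2 fold changes of 0.54 for Lfng and 0.11 for Rfng. Neurl1a, a Neuralized ligase that drives ligand endocytosis, rose from 0.423 ± 0.0648 to 3.88 ± 1.03 FPKM (1.76, limma adjusted p = 0.000918). Dner, a Delta-like protein of neurons and glia, rose from 0.0903 ± 0.0284 to 1.72 ± 1.04 FPKM (1.24, limma adjusted p = 0.0129), while 11 of 12 markers of enteric neurons and glia were called higher, whose part in it was not tested. Cir1, a corepressor that binds RBPJ, rose from 1.06 ± 0.227 to 3.51 ± 1.25 FPKM (1.10, limma adjusted p = 0.00861).

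Receptor cleavage genes moved in both directions. The γ-secretase subunit Aph1a (81.6 ± 2.1 to 45.4 ± 2.58 FPKM, SD, n = 3 each) fell by 0.83 on the log2 scale (limma adjusted p = 0.00245), and Ncstn, another subunit, fell by 0.42 (limma adjusted p = 0.0417). Aph1c, a paralog of Aph1a at a far lower level, rose from 0.101 ± 0.0119 to 1.22 ± 0.342 FPKM (log2 fold change 1.00, limma adjusted p = 0.00366). Reads of Aph1c and its near-identical copy Aph1b may have been split between them in counting, and Aph1b differed by 0.22 (limma adjusted p = 0.417). With libraries scaled to the epithelial markers, Aph1a stood at -0.13 and Ncstn turned to 0.29, neither past the test. The call of Aph1c held in 2 of 5 fits without 1 mouse.

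In the nuclear complex, Rbpj, the DNA-binding factor of the pathway, rose from 2.46 ± 0.158 to 4.77 ± 1.17 FPKM (log2 fold change 0.72, limma adjusted p = 0.0217), and Maml2, a Mastermind-like coactivator, from 0.108 ± 0.0828 to 1.06 ± 0.177 FPKM (0.90, limma adjusted p = 0.00377). Neither reached the fold of a call on this scale, although the ratio of means for Maml2 was 9.86 and it was called with a pseudocount of 0.1 (2.57) and by voom (3.75). The adjusted p of Rbpj stayed under 0.05 in 2 of 6 fits without 1 mouse. Log2 fold changes of the other 5 genes did not pass the test, at 0.09 for Maml1, -0.31 for Maml3, -0.01 for Snw1, -0.01 for Ep300, and 0.28 for Crebbp. Slirp overlaps 44.2% of the Snw1 exon bases on the opposite strand.

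The list of other targets held Nrarp and genes of the Hes and Hey families. Of this list and that of secretory fate factors, 6 genes passed the filter on low values. By limma adjusted p, 4 of these were lower, 2 in each list, against 2138 of all 14657 tested genes. One of the 4, Nrarp, passed the filter only through the WT group. Nrarp, a feedback inhibitor that Notch induces, measured 0.274, 0.315, and 0.443 FPKM in Gm31629-/- mice and 1.59, 1.79, and 1.67 FPKM in WT mice, with no overlap between the groups. It fell by 1.00 on the log2 scale (limma adjusted p = 0.00212), which at 3 decimals was -0.998 and so missed the fold of a call, although it was called lower with a pseudocount of 0.1 (-2.02) and by voom (-2.28). The antisense gene Gm38287 overlaps 79.4% of its exon bases, and how reads there were assigned is not given in the sources used here. Hes6 was listed here by its family, although it opposes Hes1, and its fall is not that of a gene shown to be induced by Notch. It measured 17.2, 12.3, and 19.4 FPKM against 25.5, 25.9, and 32 FPKM and fell by 0.75 (limma adjusted p = 0.0204).

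Atoh1, the master factor of the secretory lineage, measured 31.3, 21.8, and 34.6 FPKM in Gm31629-/- mice and 57, 44.8, and 47.6 FPKM in WT mice, which gave -0.77 on the log2 scale (limma adjusted p = 0.0204). Spdef, a goblet cell factor downstream of it, measured 29.4, 36.5, and 29.8 against 71.8, 58.1, and 60.5 FPKM, with a log2 fold change of -0.97 (limma adjusted p = 0.00309). Both factors were lower in every Gm31629-/- mouse than in any WT mouse. Gfi1 (-0.28) and Neurod1 (0.30) did not pass the test. Beside the lower Atoh1 and Spdef, 4 of 7 goblet cell markers were called higher and 1 lower, and epithelial marker sums were lower. With libraries scaled to the epithelial markers, which moved the median of all tested genes to 0.7, the log2 fold changes were -0.07 for Atoh1, -0.27 for Spdef, and -0.07 for Hes6, none of them past the test (limma adjusted p = 0.763, 0.286, and 0.775), and that of Nrarp was -0.69 (limma adjusted p = 0.0113). The adjusted p of Atoh1 stayed under 0.05 in 4 of 6 fits without 1 mouse (range, 0.0208 to 0.0745).

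The promoters of pathway genes were read from RefSeq (GRCm38.p6), as windows of 250 bases before to 50 bases after the start site. They were searched on both strands for TGGGAA, the core of the sequence read by RBPJ, and for the E-box CACGTG, a palindrome to which Hey proteins bind. TGGGAA was found in 25.6% of 32851 windows of all genes and CACGTG in 7.15%, and in these windows no match of one overlapped a match of the other among the genes named here. Windows were matched for 8 of the 10 Notch genes (9 windows), all but Hes1 and Hey1, and 0 of the 9 held either sequence. Below are 260 bases of 4 windows, from 250 bases before the start site, 5′ to 3′ on the strand of the gene, with matches in capitals. Notch3 (chr17:32166881-32167140, minus strand) is shown as a called receptor without a match, Hey2 (chr10:30842774-30843033, minus strand) and Hes5 (chr4:154960673-154960932, plus strand) as target genes with a pair of TGGGAA matches each, and Nrarp (chr2:25180508-25180767, plus strand) as the target gene that fell, with CACGTG alone.
Notch3: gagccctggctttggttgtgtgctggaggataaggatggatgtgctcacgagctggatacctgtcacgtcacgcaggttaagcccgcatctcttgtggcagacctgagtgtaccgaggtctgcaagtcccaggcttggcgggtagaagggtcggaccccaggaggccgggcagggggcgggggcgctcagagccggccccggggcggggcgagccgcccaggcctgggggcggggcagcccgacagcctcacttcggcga
Hey2: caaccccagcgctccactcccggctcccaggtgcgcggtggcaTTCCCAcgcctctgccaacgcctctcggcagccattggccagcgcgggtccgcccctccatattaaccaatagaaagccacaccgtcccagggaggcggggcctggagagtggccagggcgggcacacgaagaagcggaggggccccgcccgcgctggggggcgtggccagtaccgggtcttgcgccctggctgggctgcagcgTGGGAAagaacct
Hes5: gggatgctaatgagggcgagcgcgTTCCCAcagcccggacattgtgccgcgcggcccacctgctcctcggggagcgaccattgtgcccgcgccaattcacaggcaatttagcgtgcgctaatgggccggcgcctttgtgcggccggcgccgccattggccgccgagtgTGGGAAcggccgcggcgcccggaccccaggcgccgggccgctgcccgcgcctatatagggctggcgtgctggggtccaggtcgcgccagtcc
Nrarp: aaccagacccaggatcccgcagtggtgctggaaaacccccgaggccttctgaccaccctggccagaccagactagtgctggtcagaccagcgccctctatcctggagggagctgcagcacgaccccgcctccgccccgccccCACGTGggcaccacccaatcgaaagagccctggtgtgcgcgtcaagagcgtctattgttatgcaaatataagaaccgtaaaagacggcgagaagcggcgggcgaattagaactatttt

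The matches in Hey2 begin 207 and 3 bases before the start site, those in Hes5 226 and 82 bases before it, and the CACGTG of Nrarp 108 bases before it. Hey2 and Hes5 thus carried the same number of matches, while Hes5 had 2 recovered fragments in Gm31629-/- mouse 1 and none in the other 5 libraries. A match of these letters is a description of the window and says nothing of binding in this tissue.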

How the data were processed

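RNA-Seq was performed on distal colon tissue of 3 Gm31629-/- and 3 WT mice, with groups and replicate numbers taken from the labels. The authors deposited 1 table of FPKM values with a column per mouse. Per the submitters' processing notes, reads were processed with HISAT2 2.1.0 and HTSeq 0.6.0 on GRCm38. The annotation release and the strand setting of the counting are not given in the sources used here. The study compared groups with DEGseq, which needs counts and was not repeated.

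Symbols, positions, and exon lengths came from GENCODE M21 and matched 27488 of 27546 identifiers. Fragments were recovered from FPKM, exon length, and estimated depth. Within each library, 96.28% to 97.25% of the values standing for at most 20 fragments lay no more than 0.1 from a whole number. Intervals on fragments cover counting error only.

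Genotypes were compared in limma 3.58.1 (R 4.3.3), using lmFit and a trended eBayes on log2(FPKM + 1). The 14657 genes whose FPKM averaged 0.5 or more were tested, with Benjamini-Hochberg adjustment over all of them. A call needed a log2 fold change beyond 1 or -1 together with an adjusted p under 0.05. Shares were tested with exact permutation tests in scipy 1.17.1. The fit was tested on simulated data. Chi-square per gene between replicates was 32.1 to 143, so no library was counted as the same library deposited again, which does not show that the libraries came from separate mice. The methods describe pooled RNA, so p-values measure the spread between these libraries, which may be partly technical.

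The 10 genes, the pathway list, and the marker lists were chosen with earlier results of these data known. Named genes were the 10 genes, every called gene of the pathway list, and the tested genes of the lists of other targets, nuclear complex, and secretory fate factors. Other genes of the list (Aph1a, Ncstn, Aph1b, Lfng, and Rfng) were named after their values were seen. Alternatives were no filter, a filter at a mean FPKM of 5, a pseudocount of 0.1, libraries scaled to the same sum, by the median ratio, or to epithelial or endothelial markers, eBayes without a trend, a replicate block, voom on recovered fragments, shares of fragments not divided by length, and each mouse left out. Promoter sequences were taken from RefSeq (GRCm38.p6). Gm31629 itself was not analysed here. One gene of the pathway list is not reported here by name.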

Additional observations from a re-analysis of the deposited data

How the results depend on the processing

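Over the alternatives, 121 refitted log2 fold changes of the 10 genes kept their direction and side of the threshold, 7 passed the threshold anew, 7 lost it, and 14 changed sign. Of those of the 26 named pathway genes, 332 kept both, 28 passed anew, 7 lost the call, and 26 changed sign. Scaling to endothelial markers, which moved the median of all genes to -2.84, gave 148 genes called higher and 12920 lower, 0 of the Notch genes called higher and 8 lower, 8 with an adjusted p under 0.05, and 0 pathway genes higher and 43 lower. Log2 fold changes were then -1.28 for Notch2, -0.47 for Notch3, -1.54 for Notch4, -2.68 for Dll1, -2.98 for Dll4, -2.80 for Jag1, and -1.36 for Jag2. Hey1 fell under the filter there. The signs of Neurl1a (-0.53), Lfng (-2.99), Mfng (-0.31), Rfng (-3.64), Aph1b (-2.43), Numbl (-0.14), Dtx1 (-0.81), Dtx3 (-0.05), Rbpj (-2.41), Maml1 (-3.42), Crebbp (-2.77), Cir1 (-1.56), and Neurod1 (-1.28) turned there as well.

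Scaling to epithelial markers gave 4977 genes called higher and 220 lower, and 20 pathway genes higher, with log2 fold changes of 0.32 for Notch1, 0.61 for Hes1, 0.29 for Ncstn, 0.12 for Maml3, 0.57 for Snw1, 0.61 for Ep300, and 0.23 for Gfi1. Scaling by the median ratio gave 1225 genes and 6 pathway genes called lower, with -0.06 for Jag1 and -0.13 for both Rfng and Maml1. A mean FPKM of at least 5 left 1 Notch gene to test, with 956 genes called higher, 0 Notch genes called or with an adjusted p under 0.05, and 1 pathway gene higher. With no filter, 3 Notch genes had an adjusted p under 0.05. A pseudocount of 0.1 and voom each gave 1 pathway gene called lower. For these changes the cause was not tested beyond the scaling or filter that defines each setting.

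Leaving out each mouse gave 2 to 5 Notch genes called higher, 2 to 6 with an adjusted p under 0.05, and 0 to 2 pathway genes called lower. Log2 fold changes ranged from -0.40 to 0.07 for Notch1, -0.04 to 0.23 for Jag1, -0.43 to 0.17 for Hes1, -0.01 to 0.25 for Rfng, -0.02 to 0.19 for Maml1, -0.07 to 0.08 for Snw1, and -0.11 to 0.10 for Ep300. The difference in share ranged from -0.469 to 11.3 percentage points for Dll1 and from -7.96 to 1.93 for Dll4, with the change of sign in both without Gm31629-/- mouse 2. Without division by length, the differences in share were -38.4 percentage points for Notch1 and 6.56 for Jag2.

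Replicate numbers shared by the groups did not pair the mice (correlations of 0.036, -0.108, and 0.014). With a replicate block, 4 Notch genes were called higher, and 4 rather than 5 had an adjusted p under 0.05, with Jag2 at 0.057 by limma.

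With 3 mice per group, an exact permutation test cannot go below 0.1, and Hey1 in WT mice rested on 2 to 6 fragments per library.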

Other observations

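Besides Hey1, the Hey family genes Hey2 and Heyl fell under the filter on low values, and their values are given here after they had been seen. Hey2, a repressor of arterial endothelium and smooth muscle, had 75, 63, and 32 recovered fragments in Gm31629-/- mice 1 to 3 and 0, 3, and 0 in WT mice. Heyl, expressed in vascular smooth muscle, had 61, 134, and 53 fragments against 7, 14, and 12. In both, every Gm31629-/- mouse was above every WT mouse, as in 36.3% of the genes that passed the filter. In the limma fit with no filter, other genes of the list under the filter did not pass the test. Their limma adjusted p was 0.104 for Dlk1, 0.925 for Dlk2, 0.604 for Dll3, 0.472 for Hes5, and 0.609 for Hes7. In the same fit, adjusted p was 0.0119 for Hey2 and 0.0329 for Heyl.

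Neurog3, the factor of enteroendocrine progenitors that acts downstream of Atoh1, went the other way, with 0, 0, and 1 recovered fragments in Gm31629-/- mice and 19, 23, and 25 in WT mice. Its adjusted p in the limma fit with no filter was 0.00287. Neurod1, which follows Neurog3 in the same lineage, measured 0.737, 1.21, and 0.439 FPKM against 0.456, 0.488, and 0.37 FPKM, with overlap between the groups.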
